A study of Mus musculus with 15 samples.

Results

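The enzymes that let glucose into glycolysis and set its rate were followed across the microvascular endothelium of 3 mouse organs. The list held 10 genes: the hexokinases Hk1 and Hk2, the glucose-phosphate isomerase Gpi1, the phosphofructokinases Pfkl, Pfkm and Pfkp, the regulators Pfkfb3 and Pfkfb4, the phosphoglycerate kinase Pgk1 and the lactate dehydrogenase subunit Ldha. A gene was read from the probe sets that the platform annotation gives to that gene's symbol alone, and where there were several, that of the highest mean stood for the gene. This found 9 of the 10 genes among 19938 genes in all, and Gpi1, which had no such probe set, was not analysed here. Endothelial cells were sorted by green fluorescence. They came from mice of the strain Tie2-GFP (FVB background), whose transgene makes the fluorescent protein under the Tek (Tie2) promoter, active in endothelium. The mice were 8 to 12 weeks old, fed standard chow, with no treatment named, and males and females were mixed in equal number. Brain samples pooled 6 mice each, heart samples 4 mice and liver samples 2 mice, with 5 pools per organ and 1 array per pool. Digestion took 60 min in every organ, with collagenase and a short trypsin step at body temperature for brain, collagenase at body temperature for heart, and dispase at room temperature followed by hepatocyte removal and a Percoll gradient for liver. Organ, enzyme, temperature and pool size cannot be told apart, and the sort keeps any cell in which the Tek promoter is active.

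Glycolysis begins when a hexokinase phosphorylates glucose and so holds it in the cell. Phosphofructokinase then makes the committing step, and its rate is raised by a sugar bisphosphate that the bifunctional Pfkfb enzymes make and break down. Further on Pgk1 yields ATP, and lactate dehydrogenase turns pyruvate into lactate, which restores the cofactor that the pathway uses up. Endothelial cells are known to draw much of their ATP from glycolysis although they lie beside oxygenated blood, and Pfkfb3 is known for its part in vessel sprouting. Several of these genes are textbook targets of the hypoxia-inducible factors, which bind DNA at a core of ACGTG or GCGTG.

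The promoters of the 4 genes whose differences are described most fully below are shown because that core can be seen in them. Each is the 250 bases before the annotated start of the gene, from RefSeq on GRCm38.p6, written 5′ to 3′ in the direction of transcription, and capitals mark ACGTG or GCGTG on either strand. The windows are chr10:78009808-78010057 on the minus strand for Pfkl, chr13:6648772-6649021 on the minus strand for Pfkp, chrX:106186850-106187099 on the plus strand for Pgk1 and chr7:46845554-46845803 on the plus strand for the upstream start of Ldha.
Pfkl: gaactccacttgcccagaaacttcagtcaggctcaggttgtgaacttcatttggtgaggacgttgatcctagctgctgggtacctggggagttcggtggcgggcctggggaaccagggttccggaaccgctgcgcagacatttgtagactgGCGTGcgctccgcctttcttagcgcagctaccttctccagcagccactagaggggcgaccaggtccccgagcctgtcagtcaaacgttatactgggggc
Pfkp: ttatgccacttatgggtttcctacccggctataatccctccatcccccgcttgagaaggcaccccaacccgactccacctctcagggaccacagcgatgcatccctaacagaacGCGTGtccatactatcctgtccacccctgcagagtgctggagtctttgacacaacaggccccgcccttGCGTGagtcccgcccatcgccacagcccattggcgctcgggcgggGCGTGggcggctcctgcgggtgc
Pgk1: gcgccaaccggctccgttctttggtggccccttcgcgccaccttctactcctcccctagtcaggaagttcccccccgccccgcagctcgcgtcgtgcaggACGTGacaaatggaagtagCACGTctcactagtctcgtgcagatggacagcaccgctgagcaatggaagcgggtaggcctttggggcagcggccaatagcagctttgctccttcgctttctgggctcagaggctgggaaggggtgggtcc
Ldha: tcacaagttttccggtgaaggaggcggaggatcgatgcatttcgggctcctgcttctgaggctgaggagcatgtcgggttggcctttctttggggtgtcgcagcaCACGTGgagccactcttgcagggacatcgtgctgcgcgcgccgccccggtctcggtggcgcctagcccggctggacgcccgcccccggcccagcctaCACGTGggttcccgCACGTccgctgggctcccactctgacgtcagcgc
Pfkl held 1 match, 99 bases before the start, and Pfkp held 3, at 136, 68 and 23 bases. Pgk1 held 2, at 150 and 131 bases. Ldha held 5, of which 4 come from a pair of CACGTG palindromes, each read once on either strand, so ACGTG also overlaps the E-box CACGTG. All 10 genes had an entry, with 16 windows in all, and 13 of the 16 windows held a match, in every gene but Gpi1. The same core stood in 38.6% of all 32851 promoter windows of this length in the table, ACGTG in 16.6%, GCGTG in 28.2% and CACGTG in 6.02%. The windows of Pfkm include an overlapping pair that shares a match, and the share over all windows was not matched for base content. These matches describe letters in a window and show no binding and no enrichment.

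The arrays were alike, with medians over all genes between 5.98 and 6.11 in the deposited log2 values, and arrays of 1 organ correlated across genes at r = 0.978 to 0.993. The sorted cells carried endothelial markers in every organ: Pecam1, a junction protein, averaged 11.27 ± 0.09 in brain cells, 11.36 ± 0.09 in heart cells and 10.97 ± 0.13 in liver cells (SD, n = 5 each). The mean over 28 pan-endothelial genes lay at 9.74 to 10.06 in brain arrays, 9.73 to 9.83 in heart arrays and 9.55 to 9.77 in liver arrays. Markers of other cells differed by organ. The mean of 16 cardiomyocyte markers was 5.73 to 5.91 in brain cells, 7.63 to 9.17 in heart cells and 5.46 to 5.73 in liver cells, with heart replicates 1 and 3 highest at 9.17 and 8.77. The mean of 10 measured Kupffer cell and macrophage markers (of 11 listed) was 5.09 to 5.35 in brain and 5.03 to 5.55 in heart. In liver it was 7.95, 5.82, 8.59, 8.20 and 5.54 in replicates 1 to 5, so 3 liver arrays stood apart from the others. Hepatocyte markers, 10 measured of 12 listed, averaged 6.02 to 6.13 in brain cells, 5.29 to 5.40 in heart cells and 7.29 to 7.91 in liver cells. In brain minus heart 2 of these 10 were called higher and 0 lower, and their median difference was -0.02. The pericyte and smooth muscle list, 11 genes, averaged 6.17 to 7.74 in brain cells, 6.70 to 8.05 in heart cells and 6.03 to 6.18 in liver cells. Brain replicate 1 stood at 7.74 for it, and the other brain arrays at 6.17 to 6.88. A list of 14 genes that respond to cell dissociation averaged 9.45 to 9.95 in brain cells, 8.28 to 10.46 in heart cells and 8.02 to 9.53 in liver cells. Fibroblast markers, 9 genes, averaged 5.38 to 5.97 in brain cells, 6.50 to 7.76 in heart cells and 5.38 to 5.93 in liver cells, again highest on heart replicates 1 and 3. Proliferation genes, 15 measured of 16 listed, averaged 5.83 to 5.92 in brain cells, 6.24 to 6.91 in heart cells and 6.26 to 6.88 in liver cells, and 8 of the 15 were lower in brain in each of its contrasts. Against liver the count was 2 without liver replicates 1, 3 and 4. The part of these other cells and of the handling in the results was not tested. Values without named arrays are given below. Without heart replicates 1 and 3, the other heart arrays still read 7.63 to 8.19 for the cardiomyocyte markers. In such pooled cells, fewer cells of a type and less RNA per cell cannot be told apart.

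The 3 phosphofructokinase isozymes had the widest ranges of organ means among the 9 enzymes. Brain had more Pfkl than both other organs, heart had more Pfkp than liver, and liver had more Pgk1 than both others, while the hexokinases, Pfkfb3 and Pfkfb4 did not pass the test in any contrast. In brain minus heart, 1 of the 9 genes was called higher and 0 were called lower at an adjusted p under 0.05 by limma, against 8.29% and 7.11% of all genes (15.4% in either direction). At an unadjusted p under 0.05, 2 of the 9 were higher and 2 lower. In brain minus liver 4 were called higher and 1 lower, against 11.1% and 14% of all genes (25.1% in either direction). In heart minus liver 1 was called higher and 1 lower, against 11.5% and 16.3% (27.8% in either direction). Over the 3 contrasts, which share arrays, 5 of the 9 genes were called at least once, where 37.8% of all genes were.

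Set by organ, 1 of the 9 was higher in brain than in both others (4.7% of all genes) and 0 were lower in brain than in both (2.82%). For heart these counts were 0 higher (3.73%) and 0 lower (3.27%), and for liver 1 higher (10.4%) and 1 lower (5.64%). The arrays of the organs compared did not overlap for 1 gene in brain and heart, 2 in brain and liver and 2 in heart and liver, against 12.8%, 19% and 20.6% of all genes in the same order of contrasts. The median log2 difference of the 9 genes was -0.06 for brain minus heart, -0.01 for brain minus liver and 0.08 for heart minus liver, where all genes had -0.03, -0.00 and 0.03. The median size without sign was 0.26, 0.40 and 0.10, where all genes had 0.13, 0.14 and 0.16. Both medians count Hk1 by its highest-mean probe set, whose target is uncertain, and depend on that choice. The probe set counted gave -0.24, -0.16 and 0.08 in that order. The one annotated with RefSeq transcripts of Hk1 gave -0.02, 0.24 and 0.25. With it the unsigned heart minus liver median would lie above that of all genes. Counts of calls by contrast were the same with it. Of the genes called against liver, Pgk1 was lower in brain and in heart, and all others were higher.

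The brain minus liver calls depend on how the arrays are scaled. Centring each array on the pan-endothelial list moved the median difference of all genes to -0.16 for brain minus heart, -0.25 for brain minus liver and -0.08 for heart minus liver. All-gene calls in brain minus liver were then 1221 higher and 7803 lower, where the deposited scale gave 2204 higher and 2799 lower. In brain minus heart they were 1016 and 2445 (1652 and 1418 on the deposited scale), and in heart minus liver 1320 and 4016 (2286 and 3252). Under that centring the brain minus liver calls of Pfkm (0.32, adjusted p = 0.0774), Pfkp (0.36, adjusted p = 0.126) and Ldha (0.27, adjusted p = 0.213) ended. Hk2 (-0.51, adjusted p = 0.00845), Pfkfb3 (-0.63, adjusted p = 0.0435) and Hk1 by a probe set whose target is uncertain (-0.40, adjusted p = 0.0223) were then called lower in brain than in liver. The Hk1 probe set annotated with RefSeq transcripts was at -0.01 under that centring (adjusted p = 0.962). Pfkl, Pgk1 and the heart minus liver difference of Pfkp kept their calls and signs. The pan-endothelial list itself differed between organs. On the deposited scale 11 of its 28 genes were called higher and 7 lower in brain minus liver, 7 and 7 in brain minus heart and 7 and 6 in heart minus liver. It is therefore not a neutral reference.

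**Figure D1:**
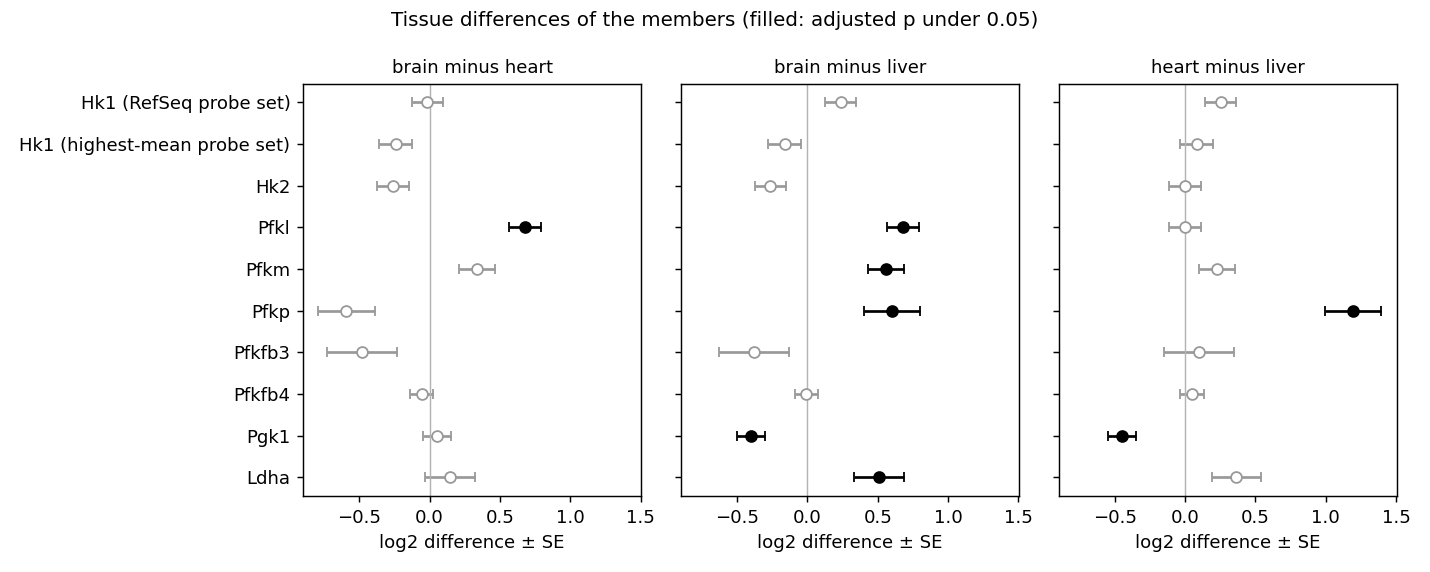
Log2 differences between organs (x axis, point with standard error of the limma fit over 15 arrays) for each enzyme (rows), with Hk1 by 2 probe sets. Filled points have an adjusted p under 0.05: Pfkl alone in brain minus heart, 5 genes in brain minus liver, and Pfkp and Pgk1, on opposite sides of 0, in heart minus liver.

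The hexokinases passed the test in no contrast. Hk2, the insulin- and hypoxia-responsive hexokinase (probe set 10545588), read 4.96, 4.83, 5.28, 5.00 and 5.17 in brain replicates 1 to 5, 5.40, 5.41, 5.35, 5.18 and 5.22 in heart, and 4.98, 5.39, 5.34, 5.62 and 5.24 in liver. All values lay under 6, the minimum of the filter on low values, and all 3 groups overlapped. The differences were -0.26 (SE 0.11, adjusted p = 0.142) for brain minus heart, -0.26 (SE 0.11, adjusted p = 0.103) for brain minus liver and -0.00 (adjusted p = 0.992) for heart minus liver. Without liver replicate 1 the difference brain minus liver was -0.35, with an adjusted p of 0.0219.

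Hk1, the hexokinase of most tissues, was read by 2 probe sets that cannot be taken as equal. The one with the highest mean, 10414661, is annotated through 1 accession that 18 probe sets share, 16 of which are also given to the ribosomal protein gene Rpl17, so what it reads is uncertain. It stood at 10.70, 11.13, 10.96, 11.17 and 11.12 in brain cells, 11.08, 11.45, 11.17, 11.18 and 11.42 in heart cells and 10.87, 11.41, 11.06, 11.33 and 11.21 in liver cells, with no contrast called. The other, 10369541, is annotated with RefSeq transcripts of Hk1. It read 8.11, 7.94, 8.17, 7.85 and 7.95 in brain, 7.89, 7.92, 8.16, 8.15 and 7.99 in heart and 7.95, 7.56, 7.97, 7.91 and 7.45 in liver. Its organs overlapped too, with liver replicates 2 and 5 the lowest of all 15 arrays. The differences were -0.02 (adjusted p = 0.945) for brain minus heart, 0.24 (adjusted p = 0.137) for brain minus liver and 0.25 (adjusted p = 0.0976) for heart minus liver. Without liver replicates 1, 3 and 4, the arrays with high macrophage markers, they were 0.50 for brain minus liver (adjusted p = 0.00589) and 0.52 for heart minus liver (adjusted p = 0.00526), where the remaining liver arrays are those 2 lowest. With quantile normalization repeated over genes, on all 15 arrays, they were 0.31 (adjusted p = 0.0171) and 0.42 (adjusted p = 0.00186).

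**Figure D2:**
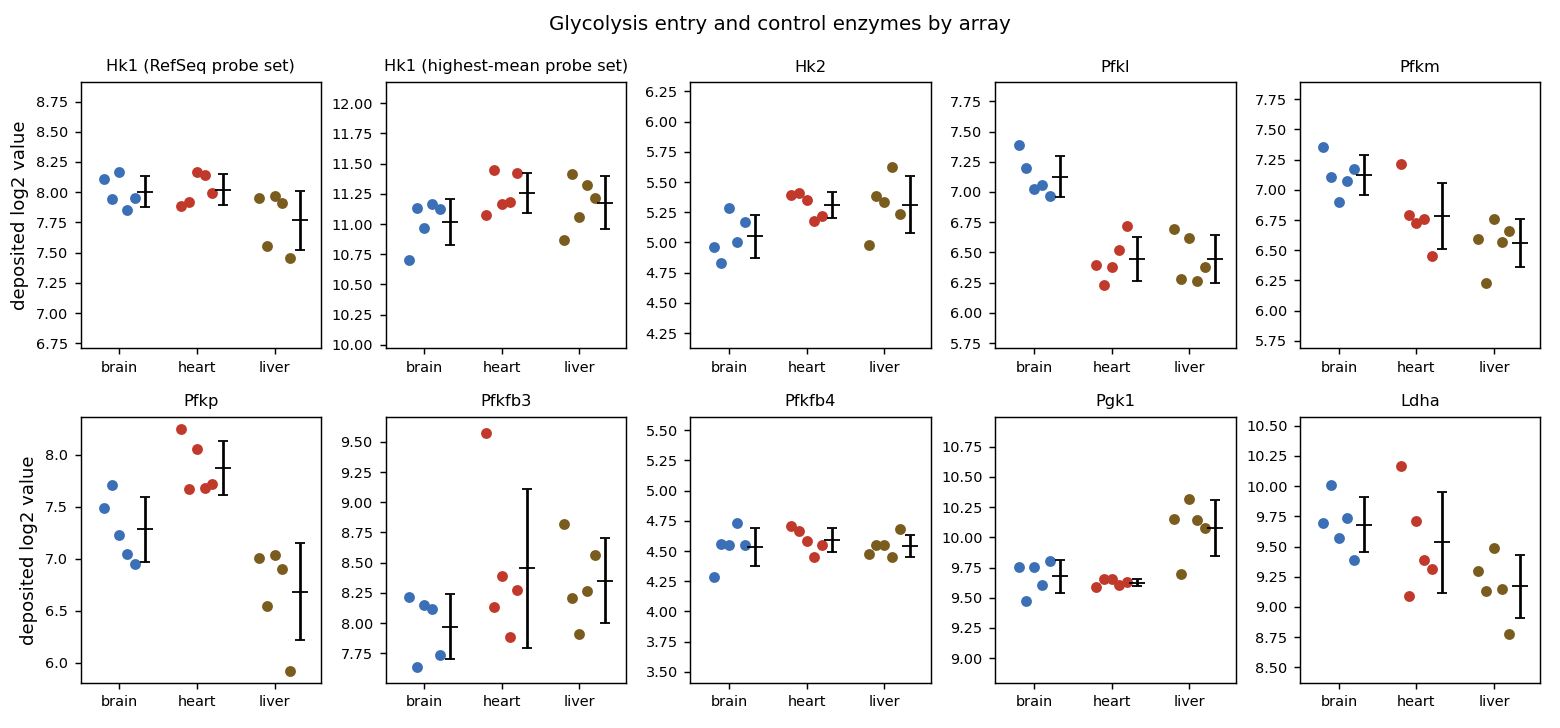
Deposited log2 values (y axis, own range in each panel) of each enzyme on the brain, heart and liver arrays, 5 points per organ in the order of replicates 1 to 5, with mean and SD beside them. Brain Pfkl (6.96 to 7.39) lies above every heart and liver array, heart Pfkp (7.67 to 8.25) above every liver array, and liver Pgk1 (9.70 to 10.32) above every heart array.

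Phosphofructokinase is built from 3 kinds of subunit, named for the liver (Pfkl), muscle (Pfkm) and platelet (Pfkp) forms. Pfkl (probe set 10370376) read 7.39, 7.20, 7.02, 7.06 and 6.96 in brain, 6.40, 6.23, 6.38, 6.52 and 6.72 in heart and 6.69, 6.28, 6.62, 6.27 and 6.38 in liver. Every brain array lay above every heart and liver array, and heart and liver overlapped. Brain was 1.60-fold higher than heart (log2 0.68, SE 0.11, adjusted p = 0.000265) and 1.60-fold higher than liver (log2 0.68, SE 0.11, adjusted p = 0.000143), and heart minus liver was 0.00 (adjusted p = 0.999). Both calls held in each of the 30 alternative settings, with differences of 0.55 to 0.75 from heart and 0.44 to 0.80 from liver.

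Pfkm (probe set 10426557) read 7.35, 7.11, 6.90, 7.07 and 7.18 in brain, 7.21, 6.79, 6.72, 6.76 and 6.45 in heart and 6.60, 6.23, 6.76, 6.57 and 6.66 in liver. Brain and liver arrays did not overlap, and of the heart arrays only replicate 1 lay within the brain range. Brain was 1.48-fold higher than liver (log2 0.56, SE 0.13, adjusted p = 0.00289). The difference brain minus heart was 0.34 (SE 0.13, adjusted p = 0.0948) and heart minus liver 0.23 (adjusted p = 0.217). Without heart replicate 1, which also had the highest cardiomyocyte markers, brain minus heart was 0.44 (adjusted p = 0.0140), and without heart replicates 1 and 3 it was 0.46 (adjusted p = 0.0273). The muscle subunit was called higher in heart than in brain or liver in none of the 30 alternative settings.

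Pfkp (probe set 10407481) had the widest range of organ means in the list. It read 7.49, 7.71, 7.23, 7.05 and 6.95 in brain, 8.25, 7.67, 8.06, 7.69 and 7.72 in heart and 7.01, 6.54, 7.04, 6.90 and 5.92 in liver. Heart lay above liver on every array, while brain lay between them, with brain replicate 2 inside the heart range and liver replicates 1 and 3 inside the brain range. Heart was 2.29-fold higher than liver (log2 1.19, SE 0.20, adjusted p = 0.000175), a call that held in all 30 alternative settings. Brain was 1.52-fold higher than liver (log2 0.60, SE 0.20, adjusted p = 0.0337), and brain minus heart was -0.59 (SE 0.20, adjusted p = 0.0556).

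The differences of Pfkp from brain depended on the arrays and on the settings. The call for brain minus liver ended without any 1 of brain replicates 1, 2 and 3 and liver replicates 2 and 5, with adjusted p-values of 0.0529 to 0.0948. It also ended with only the organs compared (adjusted p = 0.0549), array weights (adjusted p = 0.0508), median centring (adjusted p = 0.0557) and all probe sets tested (adjusted p = 0.0642). Brain minus heart was called without brain replicate 2 (-0.70, adjusted p = 0.0287). It was also called when liver replicate 5 was left out (-0.59, adjusted p = 0.0142), an array that enters this contrast only through the shared spread, and in several other settings, such as pan-endothelial centring (-0.72, adjusted p = 0.0128). Heart replicates 1 and 3, the 2 highest heart arrays for Pfkp, were also the highest for cardiomyocyte, fibroblast and pericyte markers. Without both, Pfkp differed by -0.41 for brain minus heart (adjusted p = 0.291) and 1.01 for heart minus liver (adjusted p = 0.00344). In that setting 13 of 16 cardiomyocyte genes and 6 of 9 fibroblast genes were still called lower in brain than in heart. Without liver replicates 1, 3 and 4, the liver arrays with high macrophage markers, Pfkp differed by 1.05 for brain minus liver (adjusted p = 0.00375) and by 1.65 for heart minus liver (adjusted p = 0.00011).

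The balance of the isozymes was described within each array, since each array gives both probe sets. The absolute size of such a difference depends on the probes and was not read; only its change between organs was. Pfkp minus Pfkl was -0.01 to 0.51 in brain cells, 1.01 to 1.85 in heart cells and -0.46 to 0.63 in liver cells. Pfkp minus Pfkm was -0.23 to 0.60 in brain cells, 0.88 to 1.34 in heart cells and -0.73 to 0.41 in liver cells. On both, all 5 heart arrays stood above all 10 arrays of the other organs, whose ranges overlapped. Pfkl minus Pfkm was -0.21 to 0.12 in brain cells, -0.82 to 0.27 in heart cells and -0.30 to 0.10 in liver cells, and all 3 ranges overlapped. These differences reuse the Pfkp values given above, were set against no share over other gene pairs and carry no test of their own.

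**Figure D3:**
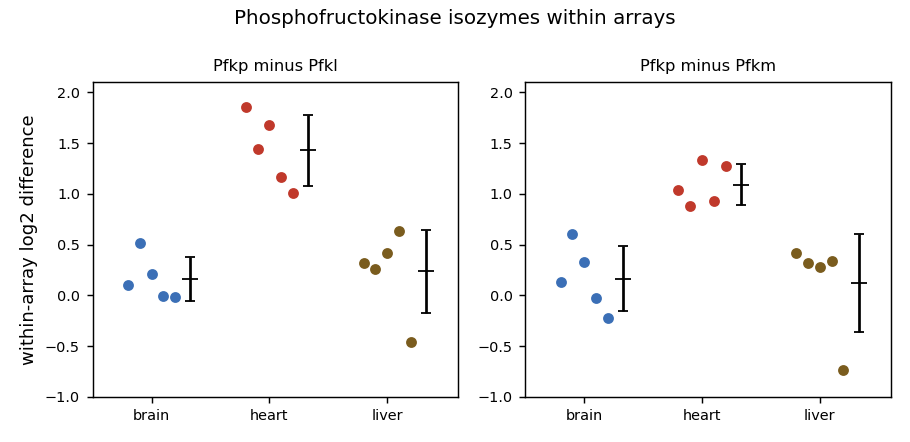
Within-array log2 difference (y axis) of Pfkp from Pfkl (left panel) and from Pfkm (right panel) on brain, heart and liver arrays, 5 points per organ in the order of replicates 1 to 5, with mean and SD beside them. Heart arrays lie from 1.01 to 1.85 and from 0.88 to 1.34, above all others, and liver replicate 5 is the lowest point at -0.46 and -0.73.

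Pfkfb3 and Pfkfb4, regulators of phosphofructokinase, passed the test in no contrast. Pfkfb3, the bifunctional enzyme best known in endothelium (probe set 10480035), read 8.22, 7.63, 8.15, 8.12 and 7.74 in brain, 9.58, 8.14, 8.39, 7.89 and 8.27 in heart and 8.82, 8.20, 7.91, 8.26 and 8.56 in liver. The groups overlapped, and heart replicate 1 stood highest. That array also had the highest mean of the dissociation response genes, 10.46, and of the cardiomyocyte markers. The differences were -0.48 (SE 0.25, adjusted p = 0.236) for brain minus heart, -0.38 (adjusted p = 0.329) for brain minus liver and 0.10 (adjusted p = 0.807) for heart minus liver. Without replicate number 1 in all organs, brain minus heart was -0.26 (adjusted p = 0.338).

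Pfkfb4 (probe set 10589329), another enzyme of that family and a known hypoxia target, lay between 4.29 and 4.73 on all 15 arrays, with no contrast called. On 5 of the arrays it carried the same value, 4.548, so small differences between arrays cannot be read for it. Pfkfb2, the form known from heart muscle, averaged 7.28 ± 0.15 in brain cells, 7.17 ± 0.16 in heart cells and 7.49 ± 0.10 in liver cells (SD, n = 5 each). Heart minus liver was -0.32 (SE 0.09, adjusted p = 0.0133), and the other contrasts were not called. It was -0.25 (adjusted p = 0.251) without liver replicates 1, 3 and 4, -0.29 (adjusted p = 0.0569) without heart replicates 1 and 3, and with quantile normalization repeated over genes -0.20 (adjusted p = 0.109). Pfkfb1 had no probe set of its own and was not analysed here.

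Pgk1, which makes ATP in the payoff phase, was higher in liver than in both others. Its probe set (10399379) read 9.75, 9.47, 9.75, 9.60 and 9.81 in brain, 9.59, 9.65, 9.66, 9.60 and 9.63 in heart and 10.16, 9.70, 10.32, 10.14 and 10.07 in liver. All liver arrays lay above all heart arrays, and only liver replicate 2 lay within the brain range. The difference was -0.40 for brain minus liver (SE 0.10, adjusted p = 0.00575, 1.32-fold) and -0.45 for heart minus liver (SE 0.10, adjusted p = 0.00222, 1.37-fold), and brain minus heart was 0.05 (adjusted p = 0.796). Another probe set of Pgk1, 10498313, had the same values on all 15 arrays, and a further one, 10601390, differed from them by at most 0.0977, so the 3 are not independent readings. Pgk1 has pseudogene copies in the mouse genome, and the gene is uncertain to the extent that probes bind their RNA.

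Both Pgk1 calls ended without the liver arrays that carried high macrophage markers. Without liver replicates 1, 3 and 4 the differences were -0.21 for brain minus liver (adjusted p = 0.294) and -0.26 for heart minus liver (adjusted p = 0.166), with 2 liver arrays left. Leaving out any 1 array kept both calls.

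Ldha, the lactate dehydrogenase subunit that favours lactate, read 9.69, 10.01, 9.57, 9.73 and 9.39 in brain (probe set 10553301), 10.17, 9.09, 9.71, 9.39 and 9.32 in heart and 9.30, 9.13, 9.49, 9.15 and 8.78 in liver. Neighbouring groups overlapped, and brain and liver met only at brain replicate 5 and liver replicate 3. Brain was 1.42-fold higher than liver (log2 0.51, SE 0.18, adjusted p = 0.0424), brain minus heart was 0.14 (adjusted p = 0.665) and heart minus liver 0.37 (adjusted p = 0.143). The call for brain minus liver stood in 6 of the 15 fits without 1 array. It ended without any 1 of brain replicates 1 to 4, heart replicate 4 and liver replicates 1, 2, 4 and 5, with adjusted p-values of 0.0506 to 0.112. It also ended with median centring (adjusted p = 0.0699), pan-endothelial centring (adjusted p = 0.213) and all probe sets tested (adjusted p = 0.0766).

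Within liver, the arrays with low macrophage markers, replicates 2 and 5, were the 2 lowest for Hk1 by its RefSeq probe set, Pfkp, Pgk1 and Ldha. For Pgk1 these were 9.70 and 10.07 against 10.14 to 10.32 on the other 3, and for Pfkp 6.54 and 5.92 against 6.90 to 7.04. For Ldha they were 9.13 and 8.78 against 9.15 to 9.49. Replicates 2 and 5 were not the 2 lowest for Hk2, Pfkl, Pfkm, Pfkfb3, Pfkfb4 or the other Hk1 probe set. Replicate 5 also had the highest mean of hepatocyte markers, 7.91 against 7.29 to 7.39 on the other liver arrays. With 5 arrays no correlation was computed, and a part of macrophage or hepatocyte RNA in these levels was not tested.

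**Figure D4:**
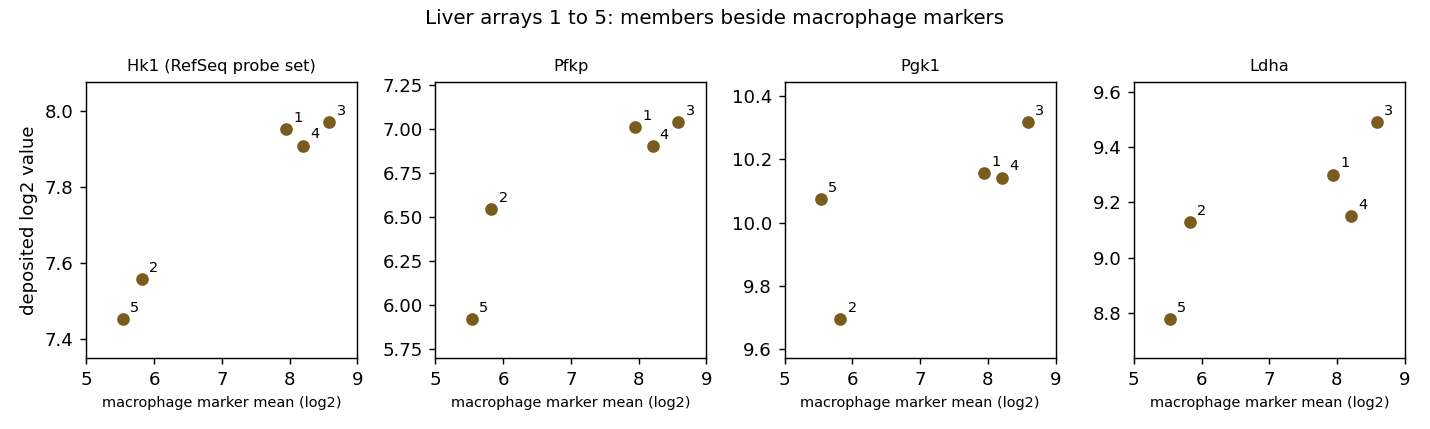
Deposited log2 values (y axis) of 4 enzymes on the liver arrays against the mean of 10 Kupffer cell and macrophage markers (x axis, log2), each point 1 array labelled by its replicate number. Replicates 2 and 5 (marker means 5.82 and 5.54) are the lowest points in every panel, and replicates 1, 3 and 4 lie at 7.95 to 8.59. The enzymes not shown did not share this order.

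The other enzymes of the glycolytic chain varied one by one. Of 22 listed, 17 were measured; 3 were higher and 1 lower in brain minus heart, 1 higher and 2 lower in brain minus liver, and 2 higher and 6 lower in heart minus liver. The median differences were 0.04, -0.05 and -0.16 in that order. The heart minus liver counts were 1 and 3 without liver replicates 1, 3 and 4, and also 1 and 3 without heart replicates 1 and 3, where 2 were higher in brain minus liver. Pkm, the pyruvate kinase outside liver parenchyma and red cells, averaged 9.17 ± 0.08 in brain cells, 8.60 ± 0.23 in heart cells and 9.01 ± 0.27 in liver cells (SD, n = 5 each). It was higher in brain than in heart (log2 0.57, SE 0.13, adjusted p = 0.00368) and lower in heart than in liver (log2 -0.41, SE 0.13, adjusted p = 0.0207). The difference from liver was -0.15 (adjusted p = 0.579) without liver replicates 1, 3 and 4 and -0.27 (adjusted p = 0.075) with quantile normalization repeated over genes. Aldoa, the main aldolase, lay at 9.84 to 10.18 in brain cells, 9.86 to 10.11 in heart cells and 9.56 to 9.98 in liver cells and was called in no contrast. Tpi1, the triose-phosphate isomerase, was higher in brain than in heart (0.79, adjusted p = 0.00332) and liver (0.53, adjusted p = 0.0307), the liver call ending at the pan-endothelial centring (0.28, adjusted p = 0.202) and without liver replicates 1, 3 and 4 (0.66, adjusted p = 0.0852).

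Ldhb, Bpgm and Pgam2 differed by more, with a log2 difference of over 1 in a called contrast. Ldhb, the other lactate dehydrogenase subunit, averaged 7.24 ± 0.45 in brain cells, 7.77 ± 0.57 in heart cells and 9.90 ± 0.13 in liver cells. It was lower in brain than in liver by 6.34-fold (log2 -2.67, adjusted p = 7.53e-08) and lower in heart than in liver by 4.36-fold (log2 -2.13, adjusted p = 1.74e-06), the opposite direction to that called for Ldha in brain minus liver. Bpgm, which makes the bisphosphoglycerate that lowers the oxygen affinity of haemoglobin, averaged 8.04 ± 0.22 in brain cells, 6.90 ± 0.27 in heart cells and 7.77 ± 0.31 in liver cells. It was higher in brain than in heart (1.13, adjusted p = 3.36e-05) and lower in heart than in liver (-0.86, adjusted p = 0.000335). Pgam2, the phosphoglycerate mutase of muscle, averaged 5.63 ± 0.12 in brain cells, 7.20 ± 0.87 in heart cells and 5.68 ± 0.19 in liver cells, with heart higher than liver by 1.51 (adjusted p = 0.000491) and brain minus heart at -1.56 (adjusted p = 0.000618). The cardiomyocyte list differed in the same directions, with 15 of 16 genes lower in brain than in heart and 16 of 16 higher in heart than in liver. Without heart replicates 1 and 3, Pgam2 differed by -1.02 for brain minus heart (adjusted p = 0.000639) and 0.97 for heart minus liver (adjusted p = 0.00063). This setting leaves cardiomyocyte signal in heart, as 13 of the 16 marker genes were still called lower in brain than in heart (median -1.94). Gapdh and Eno1 had no probe set of their own and were not analysed here.

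Among the carriers that bring glucose in and take lactate out, Slc2a1, Slc16a1, Slc16a4 and Bsg were called higher in brain against heart and against liver, by more than any of the 9 enzymes differed. The other 7 carriers differed by -0.32 to 0.84 between brain and either organ. Of 11 carrier genes, 4 were higher and 0 lower in brain minus heart and 6 were higher and 0 lower in brain minus liver by limma; in heart minus liver 3 were higher and 1 lower (3 and 0 without liver replicates 1, 3 and 4). The 2 counts of lower carriers were 2 and 0 at an unadjusted p under 0.05. At the pan-endothelial centring the lower counts were 2 and 3 in the contrasts with heart and liver. The glucose transporter Slc2a1 averaged 12.67 ± 0.15 in brain cells, 7.18 ± 0.37 in heart cells and 6.42 ± 0.16 in liver cells, and the lactate transporter Slc16a1 9.82 ± 0.51, 5.50 ± 0.60 and 5.40 ± 0.31 in the same organs. The monocarboxylate carrier gene Slc16a4 was 10.3-fold higher in brain than in heart and 23.4-fold higher than in liver, and Bsg, the chaperone of lactate transporters, 5.56-fold and 5.19-fold. Among the 9 enzymes the widest difference was 2.29-fold.

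Genes around the end of the pathway and its control were mixed. Of 13 measured genes of pyruvate entry into mitochondria (14 listed), 1 was higher and 1 lower in brain minus heart, 1 and 1 in brain minus liver, and 1 and 2 in heart minus liver. Leaving out liver replicates 1, 3 and 4, or heart replicates 1 and 3, moved these counts by at most 1. Pdk4, the kinase that shuts pyruvate dehydrogenase, averaged 7.66 ± 0.29 in brain cells, 7.20 ± 0.91 in heart cells and 8.81 ± 0.22 in liver cells and was lower in brain than in liver (-1.15, adjusted p = 0.00907) and in heart than in liver (-1.61, adjusted p = 0.000649). The brain minus liver difference was -1.12 (adjusted p = 0.123) without liver replicates 1, 3 and 4, and without heart replicates 1 and 3 Pdk4 was higher in brain than in heart (1.08, adjusted p = 0.000551).

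Of 17 known regulators of glycolytic genes, 4 were higher and 3 lower in brain minus heart, 7 higher and 2 lower in brain minus liver, and 5 higher and 3 lower in heart minus liver. Leaving out liver replicates 1, 3 and 4, 4 were higher in brain minus liver, and 2 were higher and 1 lower in heart minus liver. Hif1a averaged 9.27 ± 0.10 in brain cells, 8.76 ± 0.12 in heart cells and 9.13 ± 0.10 in liver cells, higher in brain than in heart (0.51, adjusted p = 0.000155), lower in heart than in liver (-0.36, adjusted p = 0.00203) and not called between brain and liver. Epas1, the form known for endothelium, averaged 11.99 ± 0.16 in brain cells, 11.36 ± 0.15 in heart cells and 10.80 ± 0.25 in liver cells, and each step was called (0.63 for brain minus heart, 1.20 for brain minus liver and 0.57 for heart minus liver, adjusted p-values 0.000817, 2.91e-07 and 0.00122). The heart minus liver difference without liver replicates 1, 3 and 4 was -0.30 for Hif1a (adjusted p = 0.0637) and 0.32 for Epas1 (adjusted p = 0.11). Egln3, an oxygen-dependent brake on these factors, averaged 4.65 ± 0.15 in brain cells, 6.01 ± 0.36 in heart cells and 5.76 ± 0.31 in liver cells and was lower in brain than in heart (-1.36, adjusted p = 7.78e-06) and liver (-1.10, adjusted p = 4.32e-05).

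The flow-responsive factor Klf2, known to restrain endothelial glycolysis, averaged 8.60 ± 0.18 in brain cells, 8.35 ± 0.09 in heart cells and 7.96 ± 0.11 in liver cells. It was higher in brain than in liver (0.64, adjusted p = 2.38e-05) and in heart than in liver (0.40, adjusted p = 0.00261; 0.29 and adjusted p = 0.0944 at the pan-endothelial centring, 0.37 and adjusted p = 0.0566 without liver replicates 1, 3 and 4). Klf4, its relative, was higher in brain than in liver (1.52, adjusted p = 0.00017) and in heart than in liver (1.69, adjusted p = 6.19e-05). Of the 14 dissociation response genes, 5 were higher in brain than in liver and 4 higher in heart than in liver, with 0 lower in either by limma, also at an unadjusted p under 0.05, and none called in brain minus heart. These counts rest on a few arrays. Without heart replicates 1 and 3, 6 were higher in brain minus heart, 8 higher in brain minus liver, and 2 higher and 1 lower in heart minus liver. With liver replicates 1, 3 and 4 left out, 3 were higher in brain minus liver and 1 in heart minus liver. Mlxip, which belongs to the glucose-sensing Mondo factors, averaged 5.75 ± 0.12 in brain cells, 7.80 ± 0.14 in heart cells and 8.91 ± 0.17 in liver cells, with each step called. Myc, an activator of many glycolytic genes, was lower in heart than in liver (-0.76, adjusted p = 0.0303; adjusted p = 0.0585 without liver replicates 1, 3 and 4) and not called in the other contrasts.

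Several hypoxia response genes outside glycolysis were higher in brain and heart than in liver. Of 14 measured (15 listed), 8 were higher and 0 lower in brain minus liver, 6 higher and 0 lower in heart minus liver, and 3 higher and 2 lower in brain minus heart by limma. The counts of 0 were also 0 at an unadjusted p under 0.05. The median differences were 0.49, 0.35 and 0.06 in that order. Without liver replicates 1, 3 and 4 the counts against liver were 4 and 5 higher with 0 lower, and at the pan-endothelial centring 4 were higher and 1 lower in brain minus liver and 6 and 0 in heart minus liver. Without heart replicates 1 and 3, 1 was lower in brain minus heart. Ankrd37 averaged 9.14 ± 0.10 in brain cells, 9.18 ± 0.08 in heart cells and 6.47 ± 0.23 in liver cells, 6.38-fold higher in brain than in liver (adjusted p = 3.67e-13) and 6.57-fold higher in heart than in liver (adjusted p = 5.44e-13). Ndrg1, a stress-induced gene, was higher in brain than in heart (1.35, adjusted p = 5.86e-06) and liver (1.09, adjusted p = 3.73e-05). Pgk1, itself a known hypoxia target, was called higher in liver than in both other organs. Those calls ended without liver replicates 1, 3 and 4 (adjusted p = 0.294 against brain and 0.166 against heart). In brain minus liver the 4 other enzymes called, Ldha among them, were higher in brain. Of these, the calls of Ldha and Pfkp depended on single arrays and on the scaling. That of Pfkm ended at the pan-endothelial centring. Whether hypoxia had a part in any of these differences was not tested.

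**Figure D5:**
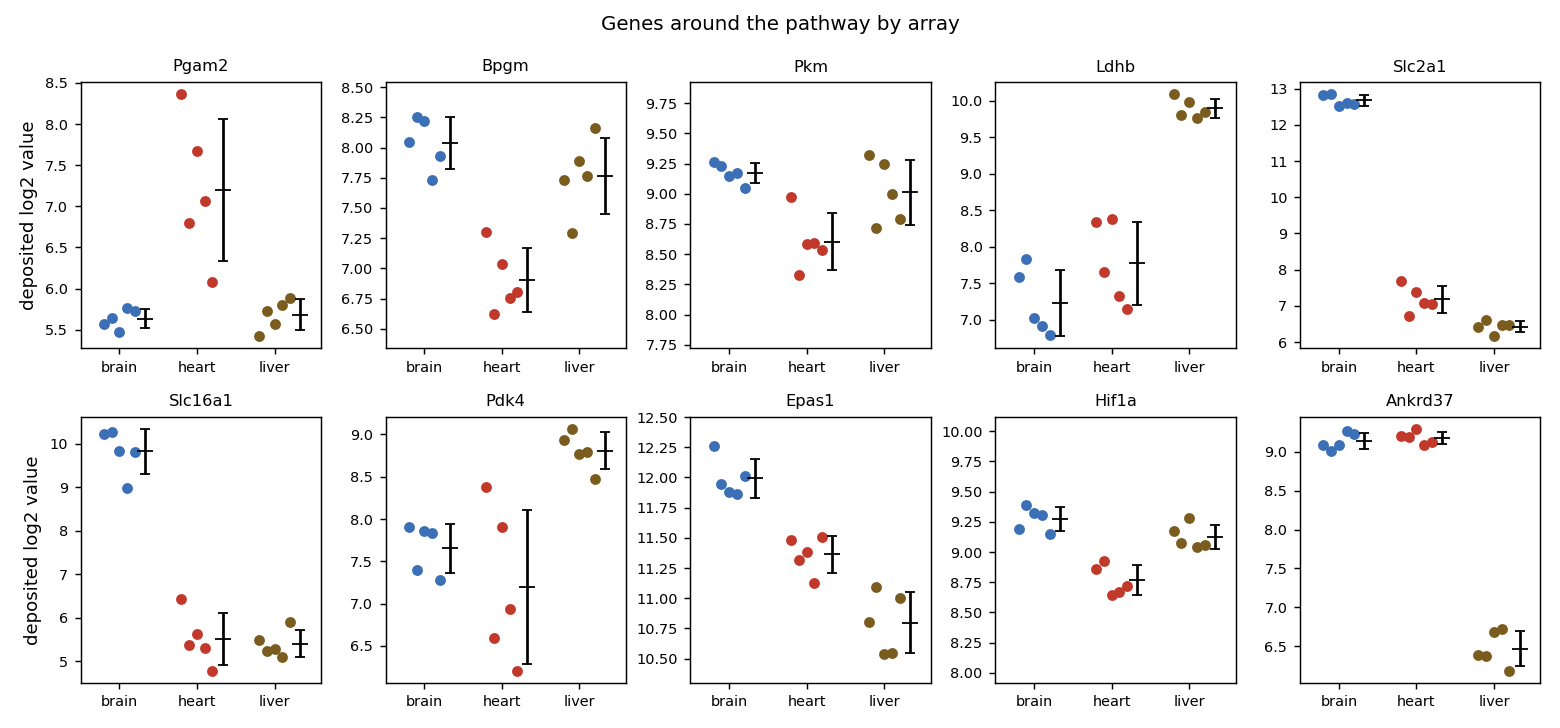
Deposited log2 values (y axis, own range in each panel) of 10 genes around the pathway on brain, heart and liver arrays, 5 points per organ in the order of replicates 1 to 5, with mean and SD beside them. Liver Ldhb (mean 9.90) and brain Slc2a1 (mean 12.67) stand clear of the other organs, Pgam2 is spread widely in heart (SD 0.87), and Ankrd37 is low in liver (mean 6.47).

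The genes whose profile over the 15 arrays lay nearest to the 3 enzymes with the widest organ range were found as a description. Likeness was the root mean square difference of log2 values centred on each gene's own mean. Nearest to Pfkp were Wnk1 (0.23), a kinase of ion transport, and Dennd1b (0.25). Nearest to Pfkl were Swap70 and Mtus1, both at 0.14, and nearest to Pfkm were Stt3b (0.15), a subunit of the glycosylation machinery, and Cacna1d (0.15), a calcium channel subunit. None of these is an enzyme of glycolysis. Only the nearest genes among all measured were taken, so this says nothing on the other glycolysis enzymes.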

How the data were processed

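RNA of 15 endothelial cell pools (5 of brain, 5 of heart, 5 of liver) was measured on an Affymetrix mouse gene array after amplification of 5 ng of total RNA. For each of 35556 probe sets the authors deposited a log2 value, which the submitters' processing notes trace to RMA in Affymetrix Power Tools. RMA subtracts background, equalises the arrays by quantiles and summarises probes robustly. Tool versions and the genome build were not given in the sources used here. RMA makes arrays alike in distribution and compresses large differences, so folds computed from log2 differences may understate those of the RNA. The number of arrays limits the precision, and no test against background probes was made.

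The platform annotation named 23410 probe sets, 21789 with a single gene symbol and 1621 with several, and did not list 12146. Of those with a single symbol, 21698 matched a RefSeq gene ID. The probe set with the highest mean stood for each of the 999 genes with several, giving 19938 genes. The fit in limma 3.58.1 under R 4.3.3 (lmFit, eBayes) gave each organ its mean and pooled the spread of all 15 arrays, with residual degrees of freedom of 12 and prior ones of 4.75. Benjamini-Hochberg adjustment ran over all genes of a contrast, threshold 0.05, and every adjusted p in the text comes from limma. The pools are separate samples by their labels. Replicate numbers s1 to s5 did not meet the bar for pairing, every pair over 0.1 (same-numbered arrays correlated in their deviations at -0.0005 to 0.204, with 6 of 15 pairs over 0.1), so no block was used.

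The enzymes and all 25 gene lists were chosen with earlier results of these data known. Pathway genes were named when called in at least 2 contrasts with a log2 difference of at least 1 in one of them, at most 4 per list by range of organ means, and Pfkfb1, Pfkfb2, Gapdh, Pkm, Aldoa, Eno1, Ldhb, Hif1a, Epas1, Klf2 and Myc whatever their values; Tpi1, H6pd, Pgd, Tkt and Fbp1 were named after their values were seen. Alternatives, 26 planned and 4 added after seeing the data, changed the block, the arrays, the weights, the prior, the scaling, the filter on low values (minimum 6) and the probe sets. Promoter windows came from RefSeq on GRCm38.p6.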

Additional observations from a re-analysis of the deposited data

How the results depend on the processing

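No called difference of the 9 enzymes changed direction in any of the 30 alternatives, and the other genes named were run under some of them only. Of the 9 measured enzymes, the number higher in brain minus heart (1) was 2 with array weights, without heart replicates 1 and 3, and without replicate number 1 in all organs, and 1 to 2 when single arrays were left out. The number lower there (0) was 2 with a fixed replicate block (Hk1 at adjusted p = 0.0384 and Pfkp at adjusted p = 0.0191) and 1 with a random replicate block (consensus correlation 0.101), with only the organs compared, array weights, pan-endothelial centring, repeated quantile normalization, the filter on low values, and without liver replicates 1, 3 and 4; leaving out single arrays gave 0 to 1. In brain minus liver the number higher (4) was 2 with median centring, 1 with pan-endothelial centring, 2 with all probe sets tested, 3 with only the organs compared or with array weights, and 2 to 4 without single arrays. The number lower there (1) was 2 with array weights and with median centring, 4 with pan-endothelial centring, 0 without liver replicates 1, 3 and 4, and 1 to 2 without single arrays. In heart minus liver the number higher (1) was 2 with repeated quantile normalization, and the number lower (1) was 0 without liver replicates 1, 3 and 4. All genes called numbered 9024 in brain minus liver with pan-endothelial centring (5003 as deposited) and 3285 in heart minus liver without liver replicates 1, 3 and 4 (5538 with them), where fewer arrays were tested. The cause of the other changes was not tested. Same-numbered arrays correlated best with their own number in 9 of 15 cases, a hint from the data and not the design. With the fixed replicate block all genes called in brain minus heart were 1799 higher and 1570 lower, against 1652 and 1418 without it, and no other count of enzymes called changed. The filter left 11245 genes and 7 of the enzymes, without Hk2 and Pfkfb4, whose low signal limits what can be read for them.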

Other observations

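Of 12 measured pentose phosphate and hexosamine genes (13 listed), 2 were higher and 1 lower in brain minus heart, 0 higher and 4 lower in brain minus liver, and 0 higher and 6 lower in heart minus liver by limma, where 15.4%, 25.1% and 27.8% of all genes were called in either direction. At an unadjusted p under 0.05, 1 was higher in each contrast with liver. The pentose phosphate genes H6pd, Pgd and Tkt were lower than in liver in both contrasts. Gfpt2, an entry enzyme of the hexosamine branch, averaged 5.45 ± 0.19 in brain cells, 6.53 ± 0.55 in heart cells and 6.90 ± 0.18 in liver cells (SD, n = 5 each) and was lower in brain than in heart (log2 -1.08, adjusted p = 0.000674) and liver (log2 -1.45, adjusted p = 1.68e-05). Without liver replicates 1, 3 and 4, the arrays with high macrophage markers, the counts against liver were 1 higher and 2 lower in brain and 1 higher and 2 lower in heart.

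Glycogen genes gave 1 higher and 1 lower of 10 measured (11 listed) in brain minus heart, 1 higher and 4 lower in brain minus liver and 1 higher and 3 lower in heart minus liver (1 lower without liver replicates 1, 3 and 4). Gbe1, the glycogen branching enzyme, averaged 10.29 ± 0.14 in brain cells, 8.21 ± 0.21 in heart cells and 8.35 ± 0.18 in liver cells and was 4.23-fold higher in brain than in heart and 3.85-fold higher than in liver. Pygm, the glycogen phosphorylase of muscle, averaged 6.01 ± 0.15 in brain cells, 7.24 ± 0.25 in heart cells and 5.77 ± 0.15 in liver cells, beside cardiomyocyte markers that were also higher in heart. Its difference from brain and liver in heart was not tested apart from those markers. Of 8 genes of gluconeogenesis and the phosphatases that oppose glycolysis, 1 was higher and 2 lower in each of the 3 contrasts. Without liver replicates 1, 3 and 4 it was 2 higher and 1 lower in brain minus heart and 0 higher and 1 lower in each contrast with liver. Fbp1, which reverses the phosphofructokinase step, lay at 4.08 ± 0.07 in brain cells, 4.02 ± 0.16 in heart cells and 4.46 ± 0.12 in liver cells and was called lower in brain and in heart than in liver. These means lay under 6, the minimum of the filter on low values, which limits what can be read for Fbp1.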
